A study of Mus musculus with 4 samples.

Results

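The genes described here build and run cilia, the hair-like cell projections that rest on a microtubule core called the axoneme. They were chosen by name: protein-coding genes whose symbols begin with Ift, Bbs, Dnah, Dnai or Rsph and a number, plus Foxj1, Arl13b and Tmem67. With GENCODE vM21 symbols the rule found 48 of the 55487 genes in each deposited table. Of these, 22 were transport genes (14 Ift and 8 Bbs), 23 were motile axoneme genes (15 Dnah and 8 Rsph), and Arl13b, Tmem67 and Foxj1 made up the rest. No Dnai symbol was found.

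Most mammalian cells, astrocytes included, can carry a solitary primary cilium that does not beat and serves as an antenna for signals such as Hedgehog ligands. Proteins move along it by intraflagellar transport (IFT): IFT-B complexes are carried outward by kinesin, IFT-A complexes return with dynein, and the BBSome takes membrane cargo with them. Motile cilia, carried in the brain by ependymal and choroid plexus cells, add dynein arms built on Dnah heavy chains and the radial spokes formed by Rsph proteins, and Foxj1 is the transcription factor that switches on their genes.

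RNA came from primary cultured mouse astrocytes grown to 5 days past confluence, with 1 library for each combination of genotype label and treatment label. The groups were OASIS-deficient with doxorubicin, OASIS-deficient untreated, wild type with doxorubicin, and wild type untreated. OASIS, encoded by Creb3l1, is a transcription factor anchored in the endoplasmic reticulum membrane, and doxorubicin, which damages DNA, was given at 1 µg/ml for 1 h with 24 h of culture afterwards. The labels give neither the allele of the deficient cells nor the age, sex or number of the animals, and no group has a replicate.

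Total estimated counts ran from 17481188 to 22559613 per library, and a mean of 1 CPM (TMM-scaled count relative to library size) was the minimum for a gene to enter a comparison. Ratios between single libraries are log2 ratios of CPM + 1, and "2-fold" refers to that scale. Creb3l1 had 235 counts in the deficient library against 636 in wild type with doxorubicin, and 260 in the deficient library against 966 in wild type when untreated, so it was lower and not absent. Xist had 2742 counts in the deficient and 2547 in the wild-type library with doxorubicin, against 0 in the deficient and 1 in the wild-type untreated library, and 4 Y-linked genes were at 0 counts in both doxorubicin libraries. Treatment and the sex of the culture therefore cannot be told apart. Astrocyte markers were abundant in all libraries, with summed levels of 5001 TPM in deficient against 2179 in wild type with doxorubicin and 5511 in deficient against 2301 in wild type untreated. Of the 14 markers, Gjb6 alone was at 0, in the untreated wild-type library. In such bulk samples, fewer cells of a type and less RNA per cell cannot be told apart.

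Promoters of 3 genes are shown because Ift27 had the largest difference of any transport gene called between genotypes, Ift43 was called in the opposite direction, and Bbs7 held the only full RFX palindrome. RFX proteins are transcription factors of ciliary genes that bind a motif known as the X-box. Each line gives 250 bases before and 50 bases after a start site in the RefSeq table of GRCm38.p6, on the strand of the gene, and capitals mark the motif. Ift27 is at chr15:78174032-78174331 on the minus strand, Ift43 at chr12:86082311-86082610 on the plus strand and Bbs7 at chr3:36613340-36613639 on the minus strand.
Ift27: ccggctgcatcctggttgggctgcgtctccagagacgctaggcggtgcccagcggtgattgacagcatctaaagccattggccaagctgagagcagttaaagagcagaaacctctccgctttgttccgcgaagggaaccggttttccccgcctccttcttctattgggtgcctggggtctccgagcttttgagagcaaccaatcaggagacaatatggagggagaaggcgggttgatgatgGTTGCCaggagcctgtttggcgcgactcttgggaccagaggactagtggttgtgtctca
Ift43: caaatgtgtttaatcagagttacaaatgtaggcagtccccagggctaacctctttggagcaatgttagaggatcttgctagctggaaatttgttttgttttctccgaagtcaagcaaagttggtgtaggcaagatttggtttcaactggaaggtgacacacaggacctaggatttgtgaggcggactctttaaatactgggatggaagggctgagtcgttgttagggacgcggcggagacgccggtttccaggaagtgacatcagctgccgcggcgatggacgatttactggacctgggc
Bbs7: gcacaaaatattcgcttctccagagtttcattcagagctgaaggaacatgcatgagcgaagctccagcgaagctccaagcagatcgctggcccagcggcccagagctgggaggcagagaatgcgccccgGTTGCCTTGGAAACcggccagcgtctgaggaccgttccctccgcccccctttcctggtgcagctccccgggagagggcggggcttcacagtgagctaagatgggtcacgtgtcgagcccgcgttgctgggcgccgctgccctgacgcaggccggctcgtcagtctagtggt

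RefSeq windows were matched for 39 of the 48 genes, and unmatched were Foxj1, Tmem67, Ift80, Ift81, Ift122, Dnah3, Rsph1, Rsph4a and Rsph10b. The core of the X-box, GTTGCC on either strand, was found for 14 of the 39 genes (35.9%). It was found for 14.1% of all 27025 genes with a window and 15.1% of the 11128 tested genes with a window. A gene counted if any of its windows held the core. The core was found for 8 of 19 transport genes (42.1%), among them Ift27, Ift57, Ift88, Ift140 and Ift172, and for 5 of 19 motile genes (26.3%). These motile genes were Dnah10, Rsph3b and the related copies Dnah7a, Dnah7b and Dnah7c, which are not independent matches. The palindrome (GTTNCC, any 2 bases, GGNAAC), whose left arm can coincide with the core, was in Bbs7 alone, and in 0.529% of all genes with a window. In Ift27 the core began 9 bases before the start site and in Bbs7 both motifs began 121 bases before it. These matches are of letters only.

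Transport genes were expressed throughout, and motile genes mostly at low levels. All 22 transport genes had at least 1 CPM in every library, with a median of 13.8 TPM (scaled by transcript length and library size) in deficient against 18.9 in wild type with doxorubicin, and 12.7 in deficient against 19.4 in wild type untreated. The median of the 23 motile genes was 0.650 TPM in deficient against 0.769 in wild type with doxorubicin, and 0.575 in deficient against 1.15 in wild type untreated. The ranges of the 2 classes overlapped, with the spoke genes Rsph9, Rsph3a, Rsph3b and Rsph1 above all heavy chains. The other spoke genes lay within the heavy chain range, with Rsph4a at a mean of 6.93 TPM against 8.27 for Dnah7a. On the TPM scale the median log2 ratio of all genes, deficient over wild type, was -0.09 with doxorubicin and -0.20 untreated, so TPM differences between genotypes are to be read against that shift. The class medians above fall on different genes in different libraries. Gene by gene on TPM, the median log2 ratio of transport genes was -0.11 with doxorubicin and -0.225 untreated. For motile genes with a mean of at least 1 TPM it was -0.18 with doxorubicin and 0.10 untreated. The 23 motile genes summed to 245 TPM in deficient against 281 in wild type with doxorubicin and 249 against 250 untreated.

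**Figure D1:**
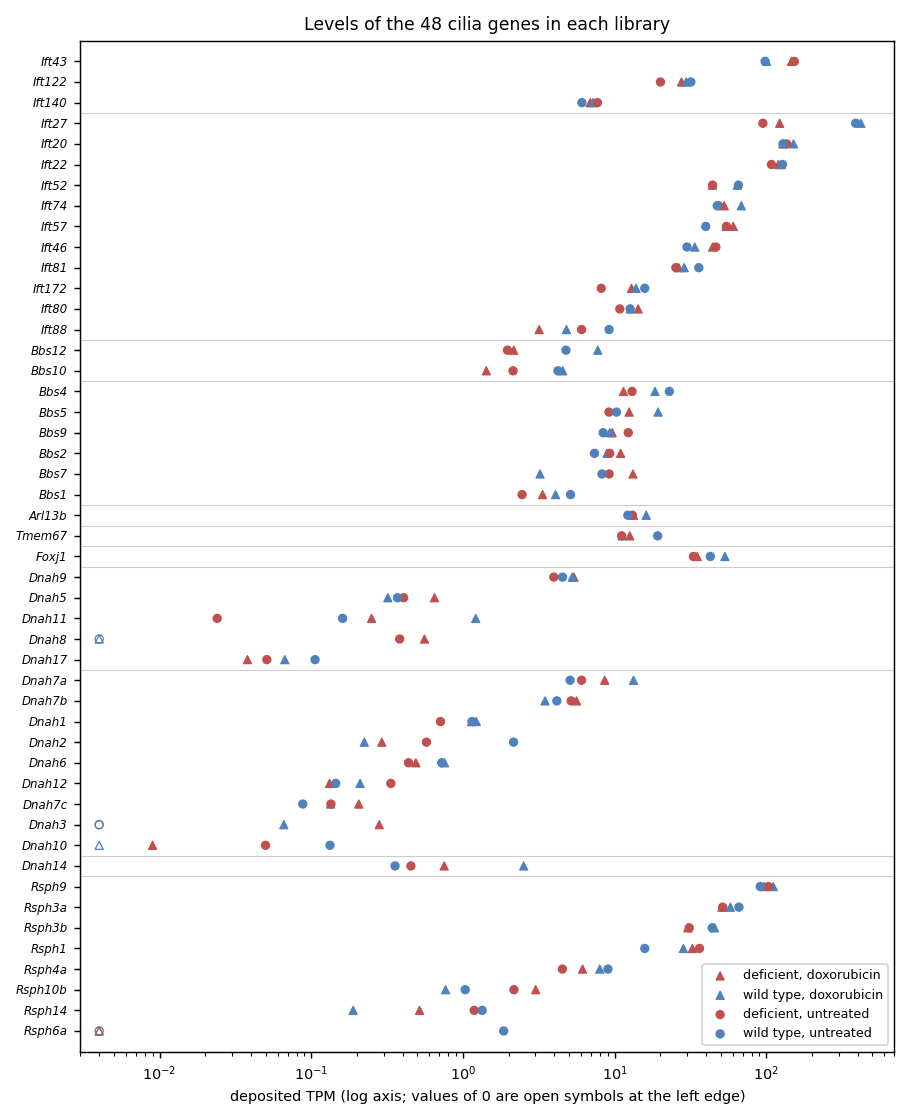
Deposited TPM (log axis) of the 48 cilia genes, 1 row a gene and 1 point a library, grouped by role from IFT-A at the top to radial spokes at the bottom. Red marks OASIS-deficient and blue wild type, triangles doxorubicin and circles untreated. Heavy chain genes lie mostly under 10 TPM, and Ift27 shows the widest gap between genotypes among the abundant genes.

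Filtering on low values kept 42 of the 48 genes. Those under it were all motile: the heavy chains Dnah3, Dnah8, Dnah10 and Dnah17, and the spoke genes Rsph6a and Rsph14. Rsph6a, a spoke head gene known mainly from testis, had 60 counts in the untreated wild-type library and 0 in the other libraries. Dnah3 had 9 counts in deficient against 15 in wild type with doxorubicin and 0 in both untreated libraries.

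The first comparison asked which cilia genes differed with the OASIS genotype in both treatments together. In an additive model of genotype and treatment fitted to all genes with edgeR's quasi-likelihood test, 2 members were higher in deficient cultures, Ift43 and Ift46, and 2 were lower, Ift27 and Ift52, at a Benjamini-Hochberg adjusted p of at most 0.05. All 4 are IFT subunits. Of the 17 motile genes tested, edgeR called 0, with 1 at an unadjusted p under 0.05, and DESeq2 and limma-voom each called 0 as well. Over all 15596 genes tested, 12.6% were called higher and 10.6% lower, so the share of members called was under the background in both directions. With no replicates, this model has 1 residual degree of freedom, so its p-values rest on how these 4 libraries scatter around additivity and say nothing of other cultures.

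Ift27, a small GTPase-like subunit of IFT-B that works with the BBSome in moving cargo out of the cilium, was the most abundant transport gene in wild type. With doxorubicin it had 123 TPM in the deficient library against 421 TPM in wild type, and untreated it had 95.0 TPM in the deficient library against 389 TPM in wild type. Both deficient libraries lay below both wild-type libraries. As a ratio of scaled counts, deficient over wild type was 0.340 (exact 95% interval for counting error 0.319 to 0.361) with doxorubicin and 0.318 (0.296 to 0.342) untreated. Ift27 fell by 1.60 on the log2 scale (SE 0.14, edgeR adjusted p = 5.95e-07). The gene lies at chr15:78159463-78174107 on the minus strand (GRCm38).

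Ift43, a small subunit of IFT-A, was the most abundant of the 3 IFT-A members. It stood at 147 TPM in the deficient library against 100 in wild type with doxorubicin, and at 153 TPM in the deficient library against 98.3 in wild type untreated. The deficient libraries lay above the wild-type ones in both treatments, and the fitted rise was 0.75 on the log2 scale (SE 0.19, edgeR adjusted p = 0.0106). The other IFT-A members did not pass: Ift140 had log2 ratios of 0.12 with doxorubicin and 0.91 untreated, the highest of the group when untreated, and Ift122 had 0.02 and -0.53 in the same order.

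Ift46 and Ift52 belong to the core of IFT-B, the complex that also holds Ift27. Ift46 had 44.3 TPM in the deficient library against 33.8 in wild type with doxorubicin, and 46.6 TPM in the deficient library against 30.0 in wild type untreated (log2 fold change 0.72, SE 0.24, edgeR adjusted p = 0.0366). Ift52 had 44.2 TPM in the deficient library against 64.5 in wild type with doxorubicin, and 44.3 TPM in the deficient library against 65.6 in wild type untreated (log2 fold change -0.48, SE 0.16, edgeR adjusted p = 0.0446). Ift46 was higher and Ift52 lower in the deficient library in both treatments. Both calls were lost with DESeq2 and without the minimum of 1 CPM, and Ift52 also without the treatment term. Using limma-voom, these 4 calls held and Bbs7 and Bbs12 were called in addition.

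**Figure D2:**
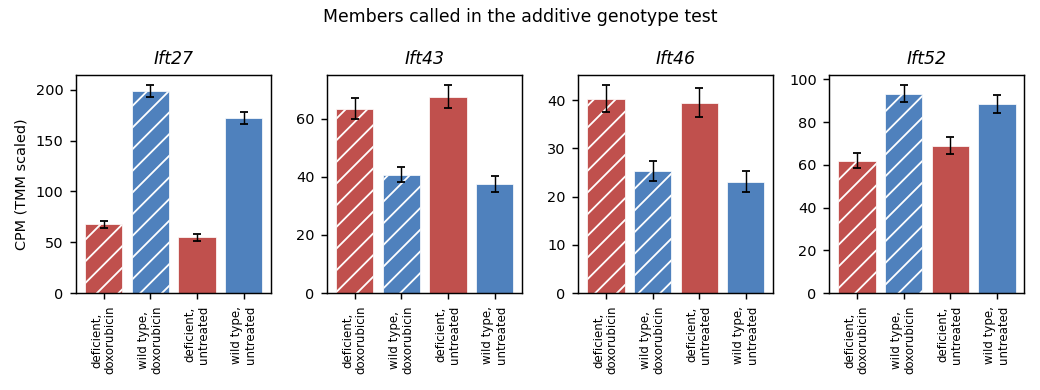
CPM of Ift27, Ift43, Ift46 and Ift52, 1 bar a library, with exact Poisson 95% intervals for counting error only. Bars run from deficient and wild type with doxorubicin (hatched) to deficient and wild type untreated. For Ift27 and Ift52 both deficient bars are below both wild-type bars, and for Ift43 and Ift46 they are above.

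The remaining 8 IFT-B members passed no test. Ift20, which also sits at the Golgi apparatus, was next in abundance with 129 TPM in deficient against 151 in wild type with doxorubicin, and 136 TPM in deficient against 129 in wild type untreated. Ift88, a subunit whose loss in mice prevents cilium formation, was the least abundant, at 3.19 TPM in deficient against 4.82 in wild type with doxorubicin and 6.06 TPM in deficient against 9.20 in wild type untreated. Apart from Ift27, every IFT-B gene lay within 2-fold in both genotype comparisons.

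Set side by side without a test, single libraries of the 2 genotypes differed by 2-fold in few members. With doxorubicin, 4 of the 42 members were at least 2-fold higher in the deficient library and 3 at least 2-fold lower, where 10.7% of all genes were higher and 9.55% lower. Untreated, 1 member was higher and 3 were lower in the deficient library, where 9.79% of all genes were higher and 10.2% lower. The median log2 ratio of the 22 transport genes was 0.05 with doxorubicin and 0.003 untreated, and that of the 17 motile genes was -0.06 and -0.08 in the same order, against 0.02 and -0.03 for all genes. On deposited TPM the transport medians of both treatments and the untreated motile median had the opposite sign. Transport genes were split 12 above and 10 below 0 with doxorubicin and 11 above and 11 below untreated, and motile genes 8 above and 9 below in both treatments. On this scale Ift27 was the only member past 2-fold in the same direction in both. Without the added 1 CPM, Bbs12 was also past it, with scaled ratios of 0.297 (0.228 to 0.384) with doxorubicin and 0.485 (0.354 to 0.656) untreated.

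**Figure D3:**
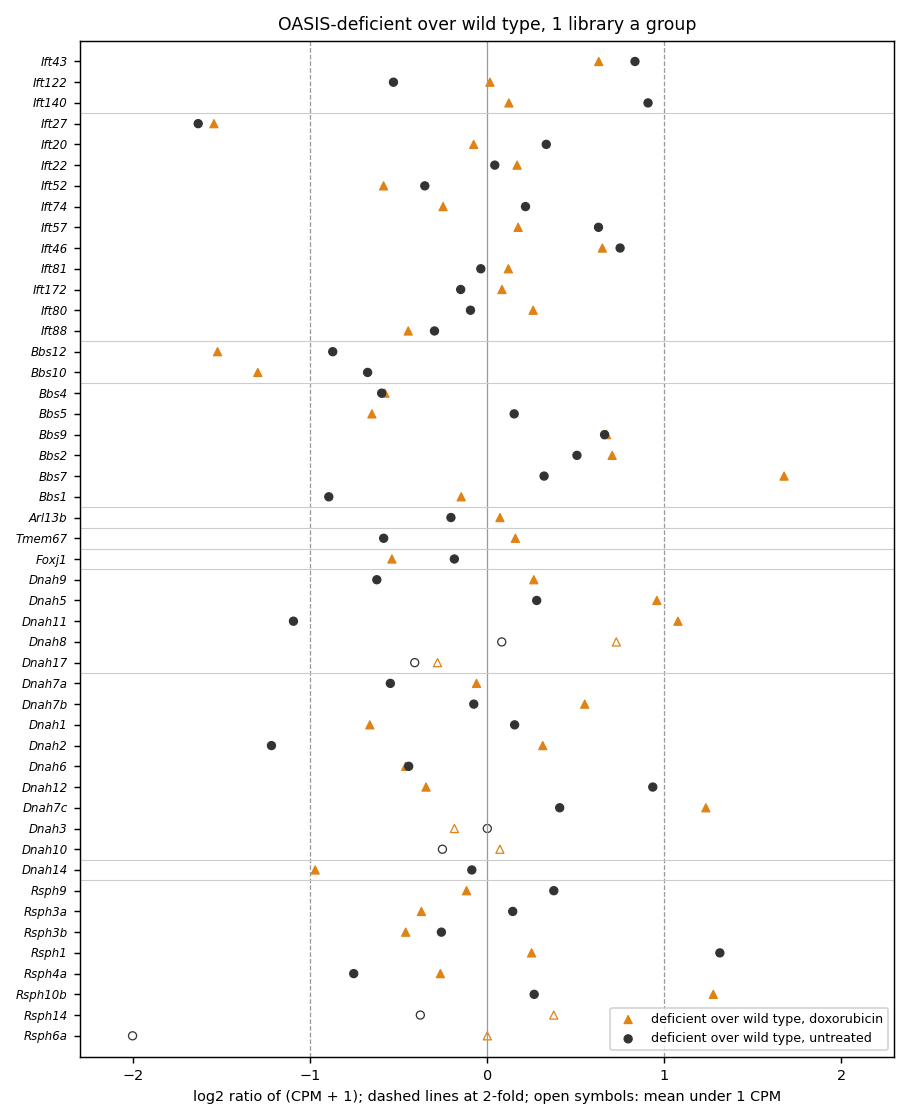
Log2 ratio of CPM + 1, OASIS-deficient over wild type, for each of the 48 genes, with doxorubicin (orange triangles) and untreated (dark circles), in the same row order as the levels. Dashed lines mark 2-fold and open symbols the 6 genes with a mean under 1 CPM. Ift27 is the only filled pair beyond the same dashed line in both treatments.

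The Bbs genes held most of the other large ratios among transport genes, with doxorubicin. Bbs7, a BBSome subunit, had 13.2 TPM in the deficient library against 3.23 in wild type with doxorubicin, and 9.21 TPM in deficient against 8.26 in wild type untreated. The low value was that of the wild-type doxorubicin library alone. Its scaled ratio was 3.57 (2.93 to 4.36) with doxorubicin and 1.27 (1.07 to 1.51) untreated, and the additive edgeR test gave an adjusted p of 0.0696.

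Bbs10 and Bbs12 are chaperonin-like proteins that help the BBSome to assemble. Bbs12 had 76 counts in the deficient library against 296 in wild type with doxorubicin, and 62 counts in deficient against 148 in wild type untreated. Bbs10 had 60 counts in the deficient library against 204 in wild type with doxorubicin, and 79 counts in deficient against 158 in wild type untreated. Both were lower in deficient cultures in both treatments and missed the edgeR threshold, with adjusted p of 0.0608 for Bbs12 and 0.138 for Bbs10. Bbs4, the most abundant BBSome member on average over the libraries, had log2 ratios of -0.58 with doxorubicin and -0.60 untreated. Adpgk, whose exons overlap Bbs4 on the other strand, had log2 ratios of -1.13 and -0.83, and the kit does not mark strand. Bbs5 was the lowest of the BBSome with doxorubicin (-0.65), Bbs1 the lowest untreated (-0.90) and Bbs9 the highest untreated (0.66).

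Arl13b, a GTPase of the ciliary membrane used as a marker of cilia, had 13.3 TPM in deficient against 16.2 in wild type with doxorubicin and 13.1 TPM in deficient against 12.2 in wild type untreated. Tmem67, a membrane protein of the transition zone at the cilium's base, had 12.6 TPM in deficient against 11.2 in wild type with doxorubicin and 11.1 TPM in deficient against 19.2 in wild type untreated. For Arl13b the scaled counts ran the other way from TPM, with log2 ratios of 0.07 with doxorubicin and -0.21 untreated. Only the untreated wild-type library stood apart for Tmem67. Neither gene passed, with edgeR adjusted p of 0.900 for Arl13b and 0.594 for Tmem67. Exons of Tmem67 overlap Rbm12b2 on the other strand, which the kit does not mark. Rbm12b2 was also highest in the untreated wild-type library, with log2 ratios of -0.95 with doxorubicin and -1.36 untreated.

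Foxj1, the regulator of the motile programme, was lower in deficient cultures in both treatments without passing the test. It had 35.1 TPM in the deficient library against 53.4 in wild type with doxorubicin, and 33.1 TPM in the deficient library against 42.8 in wild type untreated. Genotypes did not overlap, but the share of all genes that separate in this way was not counted. The log2 ratios were -0.54 and -0.19, and the additive fit gave -0.37 (SE 0.16, edgeR adjusted p = 0.125).

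The abundant motile members were the radial spoke genes Rsph9, Rsph3a, Rsph3b and Rsph1. Rsph9, of the spoke head, was highest at 96.8 TPM in deficient against 111 in wild type with doxorubicin and 103 TPM in deficient against 91.3 in wild type untreated. Rsph1, also of the spoke head, had 32.6 TPM in deficient against 28.4 in wild type with doxorubicin and 36.3 TPM in deficient against 15.8 in wild type untreated, where it was the only member higher by 2-fold. Its low value was that of the untreated wild-type library. The additive edgeR test did not call it (adjusted p = 0.0810). Rsph4a, the lowest spoke ratio untreated, had log2 ratios of -0.27 with doxorubicin and -0.75 untreated.

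Rsph3a and Rsph3b are near-identical copies of a spoke stalk gene, with 63.0% and 77.8% of their 31-base words found in other genes, so the split between them is uncertain. Their summed counts were 1854 in deficient against 2862 in wild type with doxorubicin and 1722 in deficient against 2026 in wild type untreated, with log2 ratios of -0.41 and -0.02. Rsph10b, the highest spoke ratio with doxorubicin (1.28), rested on 70 counts in deficient against 20 in wild type. It shares 13.0% of its words with other genes and its exons overlap Pms2.

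Dynein heavy chains were scarce and uneven. Their summed levels were 6.89 TPM in deficient against 6.87 in wild type with doxorubicin and 4.84 TPM in deficient against 5.17 in wild type untreated for the 5 outer-arm genes. For the 9 inner-arm genes the sums were 16.8 TPM in deficient against 19.4 in wild type with doxorubicin and 13.5 TPM in deficient against 13.7 in wild type untreated. Summed CPM differed from this for the outer-arm genes, with 29.7 in deficient against 19.9 in wild type with doxorubicin. Untreated, their sum was 22.2 CPM in deficient against 31.9 in wild type. Inner-arm genes summed to 37.3 CPM in deficient against 37.6 in wild type with doxorubicin and 33.6 against 39.5 untreated. Outer-arm Dnah9 and Dnah5, whose products power the beat, were within 2-fold in both genotype comparisons, with Dnah5 at 0.96 with doxorubicin and 0.28 untreated on the log2 scale. Without the added 1 CPM, the scaled ratio of Dnah5 was 2.18 (1.68 to 2.83) with doxorubicin and 1.26 (0.936 to 1.70) untreated.

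Dnah2, an inner-arm gene, had 37 counts in deficient against 30 in wild type with doxorubicin and 31 counts in deficient against 110 in wild type untreated, so the untreated wild-type library stood above the rest. Outer-arm Dnah11 was 2-fold apart in both treatments but in opposite directions, with 42 counts in deficient against 11 in wild type with doxorubicin and 5 counts in deficient against 35 in wild type untreated. Its exons overlap Cdca7l, which had 304 counts in deficient against 57 in wild type with doxorubicin and 319 in deficient against 42 in wild type untreated. Dnah1 was the lowest inner-arm ratio with doxorubicin (-0.66), Dnah12 the highest untreated (0.93), and Dnah14, whose arm is not assigned here, had -0.97 with doxorubicin and -0.09 untreated.

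Dnah7a, Dnah7b and Dnah7c share 54.2%, 40.1% and 61.6% of their words with other genes, chiefly each other. Dnah7c had 41 counts in deficient against 7 in wild type with doxorubicin and 24 counts in deficient against 16 in wild type untreated. Summed over the copies, the counts were 437 in deficient against 358 in wild type with doxorubicin and 319 in deficient against 414 in wild type untreated. The ratio of the copies together was within 2-fold in both treatments.

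How a count and a TPM relate shows which transcript length lay behind the deposited TPM, and this length varied widely among heavy chains. On single-transcript genes the recovered length was within 0.84 to 1.10 times the annotated one for the central 95% of 232 to 329 genes a library. Those genes had over 2000 bases and at least 500 counts, more than any heavy chain gene had. Dnah5, which has 1 transcript of 15637 bases, came out at 111% to 112% of it, past that range. Of 12 heavy chain genes with at least 10 counts in 3 or more libraries, 5 were above 80% of their longest coding transcript in each such library, Dnah5, Dnah6, Dnah7c, Dnah12 and Dnah17. Another 3 were below 50% in each, Dnah7a, Dnah7b and Dnah14. Dnah7a implied 811 bases in deficient against 585 in wild type with doxorubicin and 718 in deficient against 1560 in wild type untreated, where the coding transcript has 12245. Foxj1 stayed near its full 2623 bases in all libraries.

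Level and difference can therefore part for a heavy chain. Dnah11 in the wild-type doxorubicin library had 11 counts and an implied length of 548 bases of 14072, and the highest TPM of the 4 libraries at 1.22 against 0.250 TPM for 42 counts in the deficient doxorubicin library. Among transport genes, Ift22 and Ift46 were below 50% in every library, and Ift172 implied 1767 bases in deficient against 1651 in wild type with doxorubicin and 3038 in deficient against 2003 in wild type untreated, of 5403. For Ift27 the implied lengths, 717 bases in deficient against 655 in wild type with doxorubicin and 730 in deficient against 641 in wild type untreated, were close between genotypes.

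**Figure D4:**
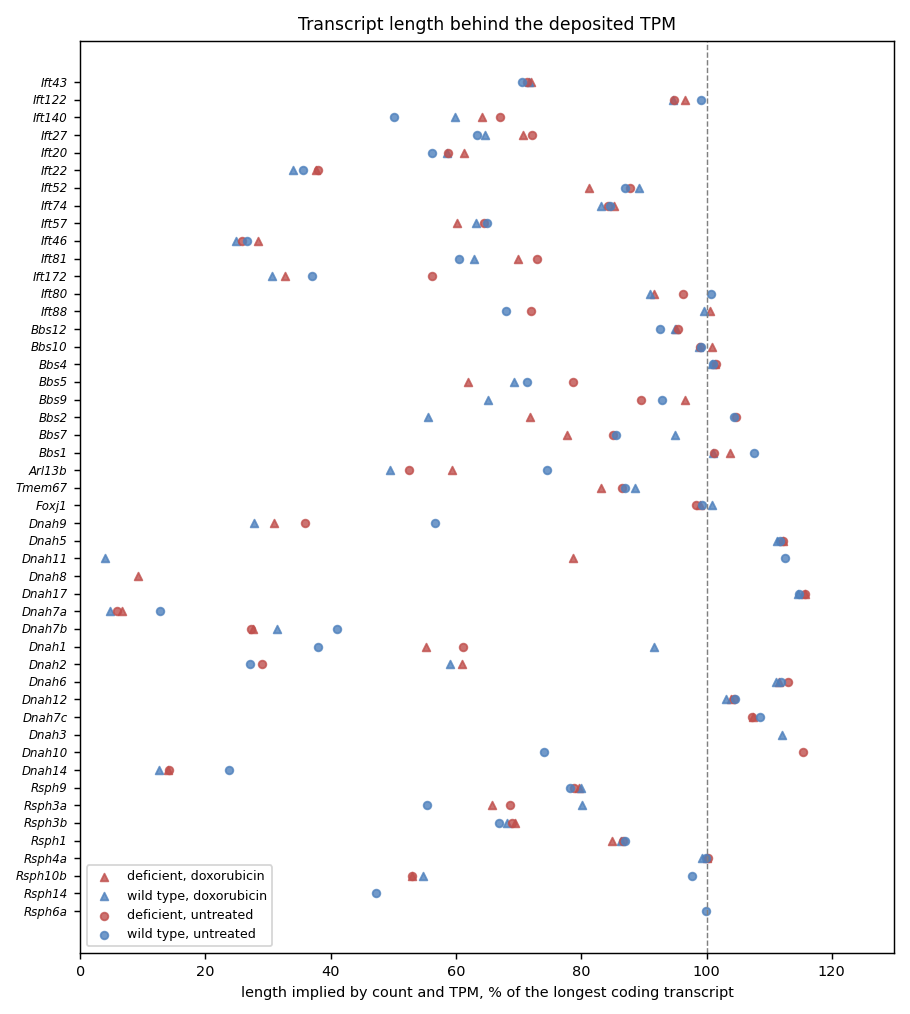
Transcript length implied by the deposited count and TPM, as a percent of the longest annotated coding transcript, 1 row a gene and 1 point a library with at least 10 counts. Colours and symbols are as for the levels. Dnah5, Dnah6, Dnah12 and Dnah17 lie above 100%, and Dnah7a and Dnah14 below 25% in all libraries.

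The next comparison set doxorubicin libraries against untreated ones within a genotype. In deficient cultures Dnah11 was higher with doxorubicin and no member was lower, where 1.58% of all genes were higher and 1.93% lower. In wild type, 2 members were at least 2-fold higher with doxorubicin, Dnah1 and Dnah14, and 2 were lower, Bbs7 and Dnah2, where 4.08% of all genes were higher and 5.45% lower. Dnah1 had 123 counts with doxorubicin against 76 untreated in deficient cultures, a scaled ratio of 1.41 (1.05 to 1.90), and 239 with doxorubicin against 77 untreated in wild type, a ratio of 2.70 (2.08 to 3.54). Dnah14 had 22 counts with doxorubicin against 12 untreated in deficient cultures, and 72 with doxorubicin against 16 untreated in wild type. The wild-type doxorubicin library was the highest of the 4 for both genes.

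In the additive edgeR test of doxorubicin no member was called and none had an unadjusted p under 0.05. DESeq2 also called 0 members with 0 unadjusted, and limma-voom called 0 with 1 unadjusted. Over all genes, 0.0192% were called higher and 0.141% lower, 25 genes in all, with 864 at an unadjusted p under 0.05. The median log2 ratio of transport genes was -0.01 in deficient cultures and 0.03 in wild type, and that of motile genes was 0.18 in deficient cultures and 0.04 in wild type. Since treatment and the sex of the culture coincide, these values belong to both.

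Genes of the same machines that carry other names were read from lists, and counts here are those called in the additive edgeR genotype test, to be read against the 12.6% of all genes called higher and 10.6% called lower in it. Among 11 IFT subunits and binding partners (Tulp3 and Rabl2) under other symbols that passed the minimum, 0 rose and 3 fell. Their median log2 ratio was -0.32 with doxorubicin and -0.14 untreated. Wdr35, an IFT-A subunit, had 26.5 TPM in deficient against 54.9 in wild type with doxorubicin and 21.5 TPM in deficient against 55.5 in wild type untreated. Traf3ip1, of IFT-B, had 7.73 TPM in deficient against 13.6 in wild type with doxorubicin and 4.85 TPM in deficient against 12.5 in wild type untreated. Both fell, as did Ttc30b, also of IFT-B, with log2 ratios of -0.69 with doxorubicin and -0.60 untreated. So of IFT subunits under all names, calls went to both complexes and in both directions.

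Of 8 BBSome subunits and partners under other symbols, 1 rose and 2 fell. Ccdc28b, a modifier of Bardet-Biedl syndrome, rose with 337 counts in deficient against 135 in wild type with doxorubicin and 375 counts in deficient against 97 in wild type untreated. Trim32, an E3 ubiquitin ligase that is also a Bardet-Biedl gene, and Lztfl1, which regulates BBSome traffic together with Ift27, fell by 0.86 and 0.65 on the log2 scale. Ttc8 and Bbip1, BBSome subunits, did not pass, with log2 ratios of 0.13 and 0.26 with doxorubicin and 0.89 and 0.75 untreated.

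Among 12 genes of the IFT motors 2 rose, the dynein light chains Dynll1 and Dynlt1b, which other dyneins also use, and 0 fell. Of 21 transition zone genes edgeR called 0, with 2 at an unadjusted p under 0.05, DESeq2 called 0 and limma-voom called 2, Invs and Rpgr. No gene of that list was 2-fold apart in either genotype comparison. Of 12 genes for ciliary membrane cargo, Pde6d and Arl3, which deliver lipid-modified proteins to the cilium, rose and Rab3ip, a Rab activator of early cilium assembly, fell. Pde6d had 131 TPM in deficient against 72.3 in wild type with doxorubicin and 127 TPM in deficient against 44.4 in wild type untreated. In the Hedgehog list of 11 genes, the coreceptors Gas1 and Boc rose and 0 fell. The ligand Shh was lower in both treatments and was not called (edgeR adjusted p = 0.101). Its log2 ratios were -1.52 with doxorubicin and -1.06 untreated. These rest on 42 counts in deficient against 182 in wild type with doxorubicin and 27 counts in deficient against 87 in wild type untreated. Gas1 had 108 TPM in deficient against 46.6 in wild type with doxorubicin and 106 TPM in deficient against 64.1 in wild type untreated.

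In the cilium disassembly list 5 of 12 genes rose and 1 fell, with a median log2 ratio of 0.87 with doxorubicin and 0.63 untreated. Aurka, a mitotic kinase that also drives cilium disassembly, had 1529 counts in deficient against 86 in wild type with doxorubicin and 792 counts in deficient against 8 in wild type untreated. The others that rose, Plk1, Nek2, Kif2c and Plk4, are likewise genes of dividing cells. All 20 genes of a separate mitosis list, which also holds Plk1, rose as well, with summed levels of 1601 TPM in deficient against 99.3 in wild type with doxorubicin and 1082 TPM in deficient against 84.2 in wild type untreated, and their part in the disassembly list was not tested. Ccp110, a centriole cap protein that restrains cilium assembly, fell, with 280 counts in deficient against 774 in wild type with doxorubicin and 179 counts in deficient against 676 in wild type untreated.

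Of 11 regulators of multiciliated cells other than Foxj1, 5 rose in deficient cultures, 1 fell and the rest did not pass. Gmnc, which starts the multiciliated fate, had 202 counts in deficient against 36 in wild type with doxorubicin and 173 counts in deficient against 19 in wild type untreated. Deup1, which builds the extra centrioles, had 138 counts in deficient against 0 in wild type with doxorubicin and 56 counts in deficient against 0 in wild type untreated. Myb, also a regulator of proliferating cells, had 60 counts in deficient against 11 in wild type with doxorubicin and 74 counts in deficient against 0 in wild type untreated. Gmnc, Deup1 and Myb lay higher in both deficient libraries, while Foxj1 lay lower without passing the test.

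Rfx4 and E2f5 rose too, with log2 ratios of 2.31 and 1.21 with doxorubicin and 2.55 and 1.16 untreated, and Rfx1 fell, with -1.07 and -0.85. Rfx4 is also expressed by astrocytes and neural progenitors. Mcidas, which acts after Gmnc, was under the minimum, with 26 counts in deficient against 0 in wild type with doxorubicin and 3 counts in deficient against 0 in wild type untreated. The X-box factors Rfx2 and Rfx3 did not pass.

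**Figure D5:**
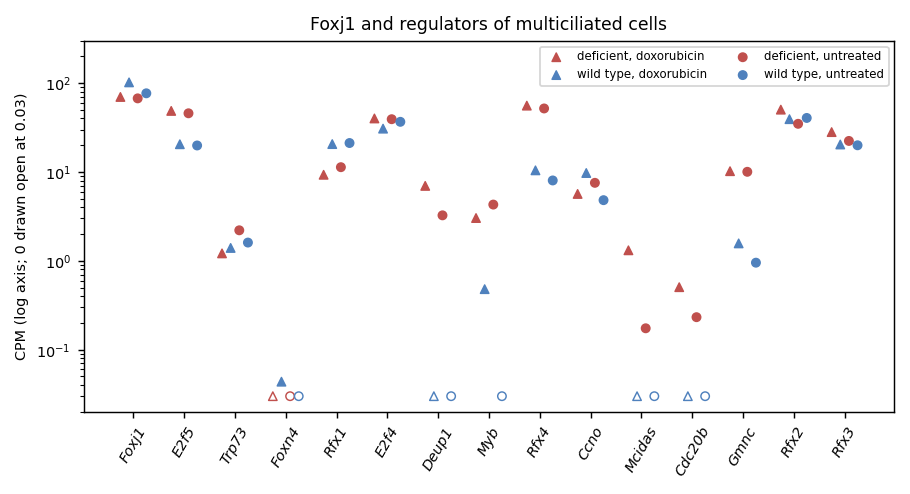
CPM (log axis) of Foxj1 and 14 regulators of multiciliated cells, 1 point a library. Red marks OASIS-deficient and blue wild type, triangles doxorubicin and circles untreated, with values of 0 drawn open at the bottom. Gmnc, Rfx4 and E2f5 are higher in both deficient libraries, Deup1 is at 0 in both wild-type libraries, and Foxj1 is lower in both deficient libraries.

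Other parts of the motile axoneme had calls near or under the share over all genes. Among 13 dynein arm assembly genes 1 rose, Pih1d1, and 0 fell, and among 10 other dynein chains and docking genes 0 rose and 1 fell, Ttc25. Of 14 nexin link, ruler and central pair genes edgeR and DESeq2 called 0, each with 1 at an unadjusted p under 0.05, and limma-voom called 1, Spag16. Their median log2 ratio was -0.41 with doxorubicin and -0.18 untreated. Spag16, of the central pair, was lowest untreated at -1.77, with -0.90 with doxorubicin.

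Markers of cells that carry motile cilia were present in all libraries. Of 15 ependymal markers 13 passed the minimum, 1 rose (Tppp3) and 1 fell (Ccdc153), and their summed level was 561 TPM in deficient against 395 in wild type with doxorubicin and 539 TPM in deficient against 389 in wild type untreated. Tppp3 made up most of it and Sntn was at 0 counts in all libraries. Ccdc153 had 54 counts in deficient against 472 in wild type with doxorubicin and 55 counts in deficient against 228 in wild type untreated. Of 14 choroid plexus markers 11 passed and 4 rose, Ttr, Folr1, Kcnj13 and Sostdc1. Their sum was 288 TPM in deficient against 190 in wild type with doxorubicin and 451 TPM in deficient against 343 in wild type untreated. Kcne2 was at 0 counts in both doxorubicin libraries and Prlr in both untreated ones. The part of these cells in the values of Foxj1 and the motile genes was not tested.

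Markers of astrocytes, the oligodendrocyte lineage, neurons and the choroid plexus were called higher more often than all genes (12.6%) in the same test. For the choroid plexus these were 4 of the 11 that passed, and 0 fell. Of 14 astrocyte markers 11 rose and 0 fell, of 12 oligodendrocyte lineage markers 11 rose and 0 fell, and of 8 neuron markers that passed 5 rose and 0 fell. Of 12 microglia markers 1 rose and 2 fell, and of 8 fibroblast and meningeal markers that passed 1 rose and 0 fell. These few calls are near the shares of all genes, 12.6% higher and 10.6% lower. Summed oligodendrocyte lineage markers were 636 TPM in deficient against 208 in wild type with doxorubicin and 613 TPM in deficient against 301 in wild type untreated, with Mog and Gpr17 at 0 in both wild-type libraries. Their part in the cilia gene values was not tested.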

How the data were processed

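RNA of 4 libraries, 1 for each genotype and treatment label, was made with a SMART-Seq v4 kit, per the labels' protocols. The authors deposited an estimated count and a TPM value for each gene, per the file headers, and per the submitters' processing notes the tool was DRAGEN and the build GRCm38. The version, annotation and read filters are not stated in what was used here. Estimated counts were rounded, and symbols came from GENCODE vM21 (55227 of 55487 identifiers matched, 260 did not).

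Counts were scaled to CPM with TMM factors of edgeR 4.0.16 in R 4.3.3, and 1 CPM was added before log2 ratios, which understates changes of low genes. Genes with a mean of at least 1 CPM (15596) were tested with edgeR's quasi-likelihood test on treatment plus genotype, with Benjamini-Hochberg adjustment over all of them (common dispersion 0.0863, prior degrees of freedom 14.3). Only the edgeR genotype fit was run on simulated counts with known changes. Ratios have exact conditional binomial 95% intervals, and 3 counts, the most that a listed 0 is taken to permit, are 0.131 to 0.174 CPM. Since the reads carry no molecular identifiers, both cover only the error of counting. TPM served for levels between genes and as an alternative. Alternatives were DESeq2 1.42.0, limma-voom (limma 3.58.1), other scalings, pseudocounts and minimums.

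The genes and lists were chosen with earlier results of these data known. Named with values were Foxj1, Arl13b, Tmem67, called members, copies, and the most abundant, highest and lowest member of each role. Of the lists, only some of the largest untreated ratios were named, and other list genes were named after their values were seen. Near-identical copies were sought as 31-base words of GENCODE transcripts shared with other genes, and 18 members have exons overlapping another gene. The implied length is count divided by TPM, scaled on genes with 1 transcript.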

Additional observations from a re-analysis of the deposited data

Results flagged for a closer look

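Dnah11, an outer-arm heavy chain, moved in opposite directions between genotypes in the 2 treatments. Its log2 ratio of deficient over wild type was 1.08 with doxorubicin and -1.10 untreated. The difference between the treatments was not tested, since each group holds 1 library. The values rest on 5 to 42 counts a library, and the exons of Dnah11 overlap those of Cdca7l, which had log2 ratios of 2.23 with doxorubicin and 2.65 untreated.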

How the results depend on the processing

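Under the alternatives 154 summary values stayed within the limits set and 28 moved. No call changed direction, but medians near 0 changed sign. The transport median of the genotype comparison was -0.11 with doxorubicin on TPM, and untreated -0.05 with total counts. The motile median of the untreated genotype comparison was 0.03 with a minimum of 5 CPM and 0.10 on TPM, and that of the doxorubicin one was 0 with no minimum. For doxorubicin, the transport median in deficient cultures was 0.11 on TPM and the motile median in wild type was -0.12 with no minimum. With 0.5 CPM added, motile genes were 1 lower in the doxorubicin and 2 higher in the untreated genotype comparison, and with doxorubicin 1 was lower in deficient cultures and 2 in wild type. With 5 CPM added, 0 motile genes were higher in the doxorubicin and 0 lower in the untreated genotype comparison, and with doxorubicin 0 were higher in deficient cultures and 0 higher or lower in wild type. A minimum of 5 CPM gave the same motile counts, except that 1 was higher with doxorubicin in wild type. With no minimum, 2 were lower with doxorubicin in wild type. With total counts, 1 was lower in the doxorubicin genotype comparison. The transport gene lower with doxorubicin in wild type, Bbs7, was not counted (0) with DESeq2 size factors or 5 CPM added.

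On deposited TPM the median of transport genes in the untreated genotype comparison was -0.225 (log2), where that of all genes was -0.203, and genes 2-fold apart were split 1221 higher to 2095 lower. The motile counts on TPM were 1 higher and 1 lower in the doxorubicin and 0 lower in the untreated genotype comparison, and with doxorubicin 0 higher in deficient cultures and 0 lower in wild type. DESeq2 and no minimum each called 2 members by genotype, Ift27 and Ift43. For doxorubicin limma-voom called 84 genes and the fit without genotype 0. The cause was not tested in any of these. No paired analysis was possible because each group holds 1 library. Leaving a library out could not be fitted, since it leaves no residual degrees of freedom. Heavy chain counts were low, 0 to 487 a library, which limits their ratios.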

Other observations

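Some genes of the ciliary lists had reads mainly in a single library, and they were chosen after their values were seen. Gli1, a target of Hedgehog signalling, had 80 counts in deficient against 3 in wild type with doxorubicin and 5 in deficient against 4 in wild type untreated. Lrrc6, a dynein arm assembly factor, had 2 counts in deficient against 96 in wild type with doxorubicin and 11 in deficient against 0 in wild type untreated. Mchr1, a receptor of neuronal cilia, had 21 counts in the untreated deficient library and 0 in the other libraries. With 1 library a group these values have no replicate.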
